A study of Homo sapiens with 18 samples.

Results

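The basal gene expression of PANC1 was set against that of SUIT2, both established human cell lines of pancreatic ductal adenocarcinoma, the common cancer of the exocrine pancreas. The members were all 6 PANC1 and all 6 SUIT2 libraries, 12 of the 18 libraries of the series, paired by the name of the small interfering RNA (siRNA). Each line carried a control siRNA in 1 library, KMT2D siRNA1 and siRNA2 in 1 library each, and KMT2C siRNA1, siRNA2 and siRNA3 in 1 library each, and RNA was taken 48 h after transfection. PANC1 was seeded at 160000 and SUIT2 at 100000 cells per well, so that seeding number and line cannot be told apart. The other 6 libraries, from the line COLO357 under the same siRNAs, entered no comparison and are given beside a few results as a range.

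No untransfected cells were in the comparison, and 5 of the 6 libraries of each line carried an siRNA against an enhancer methyltransferase. A gene was therefore called only where edgeR's quasi-likelihood test over the 6 pairs gave an adjusted p under 0.05 and the control siRNA libraries, taken alone, differed in the same direction. Nothing in the labels says that the libraries of a line came from separate cultures, and the libraries of a line carried different siRNAs, so that a p-value reflects how far these samples vary, which may be technical. Each line stands for itself, 1 culture line on each side. Levels are averages over a culture, in which fewer expressing cells and less RNA per cell cannot be told apart. They are given as CPM, the counts of a gene scaled to the size of its library and not divided by transcript length.

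Pancreatic cancer lines are often placed along an axis from epithelial cells, which are joined by E-cadherin junctions and line a duct, to mesenchymal cells, which have loosened those junctions and express vimentin and N-cadherin. Tumour suppressors often lost in this cancer include CDKN2A, a brake on the cell cycle, and SMAD4, the shared carrier of TGF-beta signals to the nucleus. KMT2C and KMT2D are large enzymes that place single methyl groups on histone H3 lysine 4 at enhancers, and both work in complexes that also hold KDM6A, a demethylase of histone H3 lysine 27.

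Counts on genes ran from 17974599 to 32115894 per PANC1 library and from 14205640 to 25632462 per SUIT2 library. Between 7.49% and 15.63% of the read pairs of the PANC1 libraries fell in no annotated feature, against 10.47% to 24.99% in SUIT2, where the libraries labelled KMT2C siRNA2 (24.99%) and KMT2C siRNA3 (22.2%) were highest. Pearson correlations of log2 CPM across the tested genes were 0.964 to 0.991 between libraries of the same line and 0.748 to 0.776 between libraries of different lines. Line took 85.2% of the sum of squares of log2 CPM in the 12 libraries, siRNA 10.4%, and the remainder was 4.37%.

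The targeted genes were read first. KMT2C stood at 49.6 CPM in the PANC1 control library, at 69 and 135 CPM with KMT2D siRNA1 and siRNA2, and at 31.5, 57.9 and 36 CPM with KMT2C siRNA1, siRNA2 and siRNA3. In SUIT2 the same libraries gave 147, 137, 218, 62.8, 95.6 and 93 CPM. KMT2D was at 26.6, 21.4, 22.5, 30.9, 99.7 and 41.6 CPM in PANC1, in that order of libraries, and at 69.2, 23.7, 45.1, 67.6, 108 and 101 CPM in SUIT2. Each targeted gene was below its control library under its own siRNAs, except KMT2C in the PANC1 library labelled KMT2C siRNA2 (57.9 against 49.6 CPM), whose target level goes against its label. The line difference was the same way in every pair for both genes. KMT2C was lower in PANC1 with a log2 difference of -1.07 (SE 0.125, adjusted p = 1.54e-06), and KMT2D with -0.87 (SE 0.169, adjusted p = 0.00034). For KMT2D the call rested on the pairing by siRNA: without the replicate block its log2 difference was -0.79 with an adjusted p of 0.0958.

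Of 16098 genes tested, 10982 were called different between the lines (68.2%), 5421 higher in PANC1 (33.7%) and 5561 higher in SUIT2 (34.5%). With so many called, size is the more informative measure. At least 4-fold differences were called for 2729 genes (17%), 1161 higher in PANC1 (7.21%) and 1568 higher in SUIT2 (9.74%). The median log2 difference over all genes tested was -0.01 and its median size was 0.66. A further 239 genes passed the adjusted p but differed the other way between the control libraries and were not called. All 6 pairs went the same way for 9854 of the called genes and for 2723 of those at least 4-fold. The libraries of the lines did not overlap for 5976 of the called genes (37.1% of the genes tested). Across genes, which are not independent replicates, the pair differences correlated with those of the control pair at 0.926 to 0.959.

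**Figure D1:**
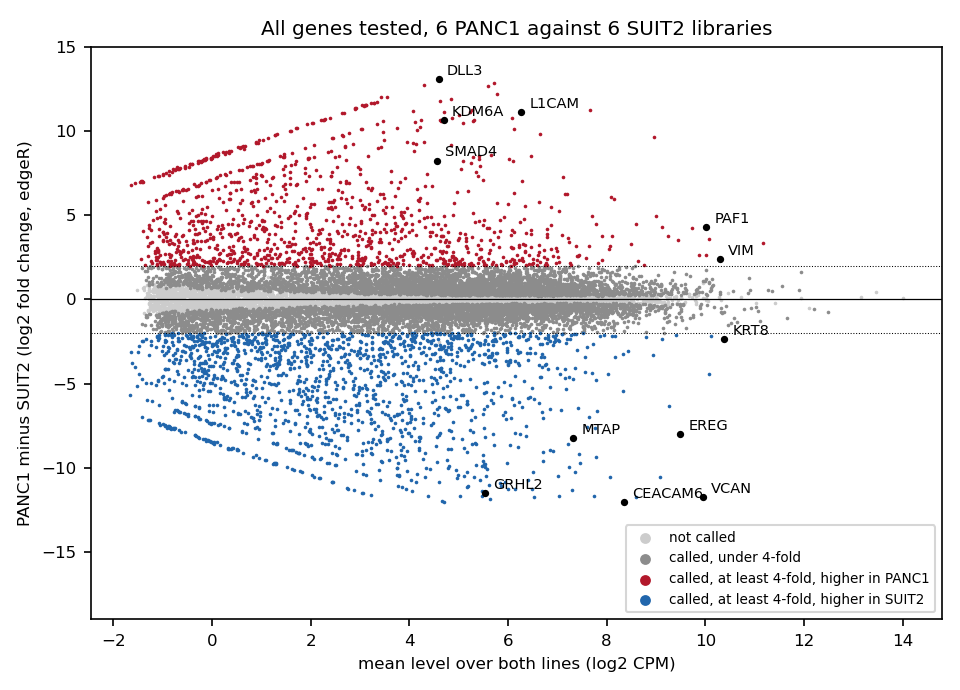
Log2 fold change of PANC1 over SUIT2 (edgeR, vertical axis) against the mean level over both lines (log2 CPM, horizontal axis) for all genes tested, each point a gene, with dotted lines at 4-fold. The 1161 red and 1568 blue points are called genes at least 4-fold higher in PANC1 and in SUIT2, and the straight edges at low level hold genes with 0 counts in 1 line.

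KDM6A RNA was all but absent from SUIT2. KDM6A lay between 43.4 and 59.4 CPM in PANC1 (median 51.1) and between 0 and 0.0654 CPM in SUIT2 (median 0.0191), where 3 SUIT2 libraries held no count. In total 3 counts were seen in SUIT2 against 7508 in PANC1, a ratio of 1991 with a 95% counting interval of 681 to 9655. COLO357 held 69.7 to 86.5 CPM. The nearest tested protein-coding neighbours were expressed in SUIT2: FUNDC1 averaged 34.5 CPM there (log2 difference -0.42) and KRBOX4 11.3 CPM (0.21, not called). DNA copy number was not measured.

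Of the 24 genes listed as KMT2 and SETD1 methyltransferases and their complex partners, 23 were matched and 22 tested; 7 were called higher in PANC1 and 13 higher in SUIT2, with a median log2 difference of -0.34. KDM6A was the only member of the list called at least 4-fold. The share called was 90.9% in the list and 68.2% over all genes tested, and the share at least 4-fold was 4.55% and 17%. All 5 tested methyltransferases of histone H3 lysine 4 on the list were higher in SUIT2, KMT2A (-0.79), SETD1B (-0.81) and SETD1A (-0.31) beside KMT2C and KMT2D. The co-activator NCOA6, a partner of the KMT2C and KMT2D complexes, was higher in SUIT2 (-1.35, SE 0.149, adjusted p = 9.41e-07). Shared core subunits were split: ASH2L (-1.09) was higher in SUIT2, and RBBP5 (0.70) and DPY30 (0.63) were higher in PANC1. CXXC1, the DNA-binding subunit of the SETD1 complexes, was higher in PANC1 (1.02, SE 0.132, adjusted p = 4.75e-06). PSIP1, a chromatin reader that partners KMT2A, was higher in SUIT2 (-0.98). The histone acetyltransferases EP300 (-0.85) and CREBBP (-0.52), which act at the same enhancers, were higher in SUIT2.

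SMAD4 was the second tumour suppressor whose RNA was nearly missing from SUIT2. SMAD4 ran from 40.5 to 55.8 CPM in PANC1 (median 45.2) and from 0.0676 to 0.229 CPM in SUIT2 (median 0.142), with 17 counts in the 6 SUIT2 libraries against 6753. Its log2 difference was 8.25 (SE 0.221, adjusted p = 6.76e-14), and COLO357 held 21.4 to 24.2 CPM. Its neighbours ELAC1 (-0.06, not called) and MEX3C (0.43) were expressed at a mean of 4.78 and 44.9 CPM in SUIT2.

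The reverse held at CDKN2A, which encodes the cell cycle inhibitor p16, and at its neighbour MTAP, an enzyme of methionine salvage. CDKN2A had 4 counts in the 6 PANC1 libraries, at 0 CPM in 4 of them, and 4.4 to 15 CPM in SUIT2 (median 7.44). MTAP was at 0.412 to 1.6 CPM in PANC1 (median 1.05) and at 169 to 454 CPM in SUIT2 (median 322), a log2 difference of -8.24 (SE 0.249, adjusted p = 6.67e-13). The next tested neighbours on either side, KLHL9 and DMRTA1, were expressed in PANC1 at a mean of 29.1 and 13.9 CPM. A run of 7 genes from next to MTAP to next to DMRTA1 was under 0.1 CPM in every PANC1 library, but only 2 of the 7, CDKN2A among them, reached 2 CPM in every SUIT2 library. CDKN2B, in the same run, had 2 counts in PANC1 and 4 in SUIT2, and so was near 0 in both lines.

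**Figure D2:**
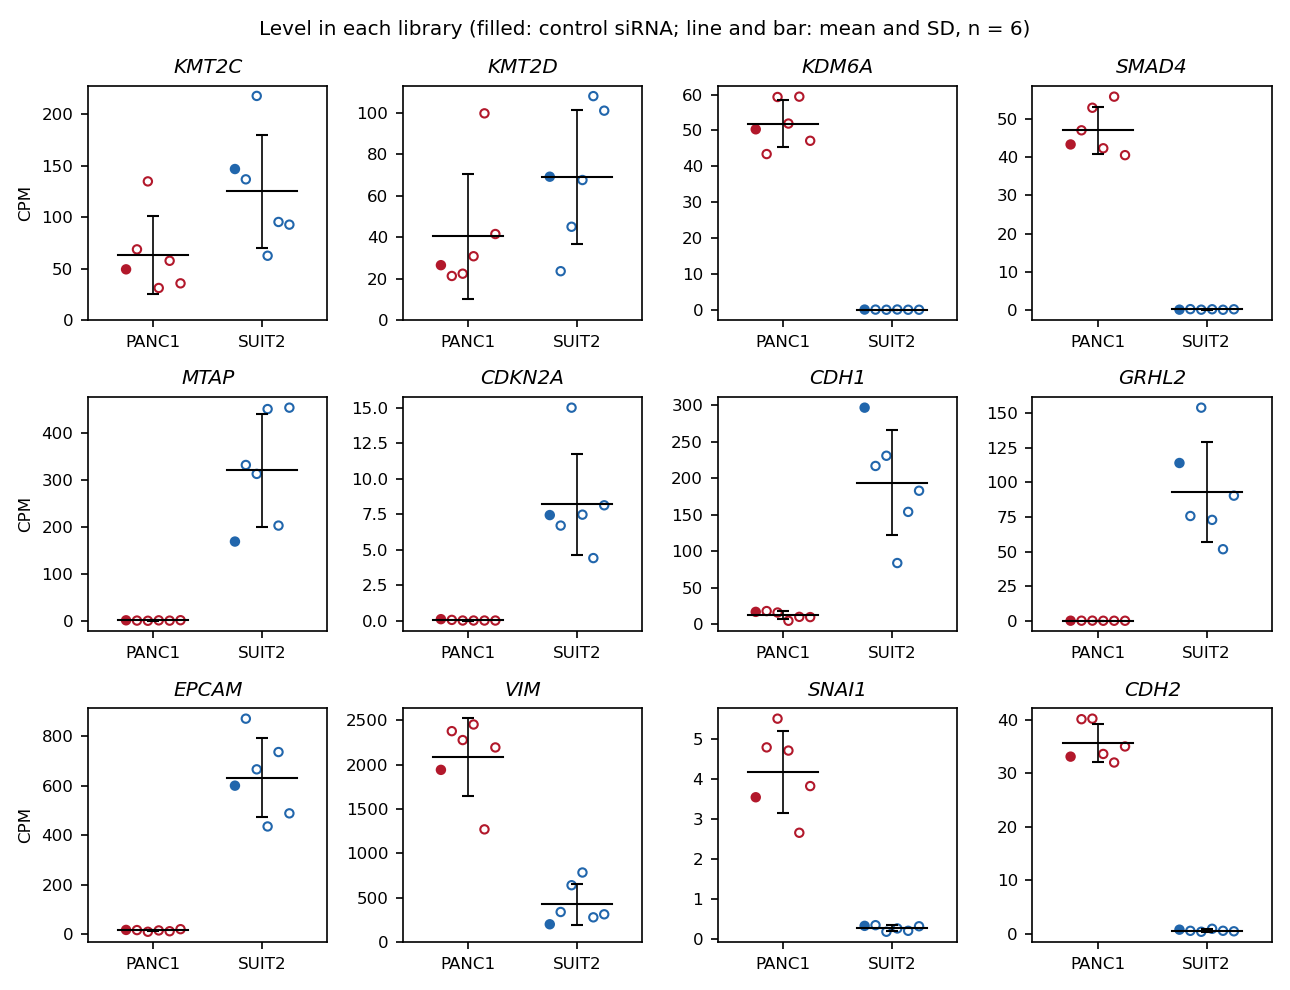
Level in CPM (vertical axis, each panel with its own scale) in the 6 PANC1 (red) and 6 SUIT2 (blue) libraries, each point a library, filled for the control siRNA, with the mean and SD (n = 6). KDM6A and SMAD4 lie near 0 in every SUIT2 library, MTAP, CDKN2A and GRHL2 near 0 in every PANC1 library, and only KMT2C and KMT2D overlap between the lines among these 12 genes.

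Of the 21 genes of the cell cycle list, which includes CDKN2A and MTAP, 20 were tested; 7 were called higher in PANC1 and 11 higher in SUIT2, with a median of -0.30. The median size of 0.65 and the 15% called at least 4-fold stood beside 0.66 and 17% over all genes tested. The 3 genes at least 4-fold different were CCND2, higher in PANC1, and CDKN2A and MTAP. CCND2, the cyclin D2 gene, was at 0.767 to 3.83 CPM in PANC1 and had 1 count in SUIT2. Cyclin E1 (CCNE1) was higher in PANC1, at 10.4 to 17.8 against 4.59 to 8.96 CPM (0.98, SE 0.16, adjusted p = 5.35e-05). Cyclin D3 (CCND3, -0.91) and the inhibitor CDKN1B (p27, -0.84) were higher in SUIT2. RB1 was called but differed by less than 1.5-fold (-0.30), and CDK6 was not called (0.12, SE 0.13, adjusted p = 0.407).

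Genes of the TGF-beta and BMP pathway, in which ligands bind paired receptors and SMAD proteins carry the signal, were split. Of 36 genes 33 were tested, 18 called higher in PANC1 and 14 higher in SUIT2, 9 and 6 at least 4-fold, with a median of 0.42. In all 97% were called and 45.5% at least 4-fold, against 68.2% and 17% over all genes tested. Among ligands, INHBB, an activin subunit, was at 75 to 172 CPM in PANC1 and 0.187 to 0.717 CPM in SUIT2 (8.37, SE 0.181, adjusted p = 1.04e-14). BMP6 (3.99) and INHBA (3.83) were also higher in PANC1, whereas BMP7 (-2.84), BMP2 (-3.45) and BMP4 (-2.16) were higher in SUIT2. The latent TGF-beta binding proteins LTBP2 (190 to 381 against 4.34 to 12.1 CPM) and LTBP1 (57.1 to 121 against 2.8 to 8.17 CPM) were higher in PANC1. Of the TGF-beta receptors, TGFBR2 was at 114 to 210 CPM in PANC1 and 374 to 744 CPM in SUIT2 (-1.86, SE 0.109, adjusted p = 5.6e-10), and TGFBR1 (-0.44) and the co-receptor TGFBR3 (-3.42) were lower in PANC1 too. SMAD2 (1.12) and SMAD9 (4.41) were higher in PANC1 and SMAD1 (-1.35) and the inhibitory SMAD6 (-1.51) higher in SUIT2. Of the ID genes, common targets of BMP signals, ID3 was at 7.49 to 18.6 CPM in PANC1 and at most 0.327 CPM in SUIT2 (5.92), ID1 was higher in PANC1 (1.28) and ID2 was higher in SUIT2 (-4.59). BAMBI, a pseudoreceptor that blocks TGF-beta signals, was higher in SUIT2 (-5.38).

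Most epithelial genes were higher in SUIT2. Of 32 genes of epithelial junctions and identity, 31 were tested. Of these 27 were called higher in SUIT2 and 3 higher in PANC1, 21 and 1 of them at least 4-fold, with a median log2 difference of -4.01. The list's shares were 96.8% called and 71% at least 4-fold, beside 68.2% and 17% over all genes tested. CDH1, the gene of E-cadherin, was at 4.6 to 17.9 CPM in PANC1 (median 12.9) and at 83.8 to 297 CPM in SUIT2 (median 200), without overlap (-4.01, SE 0.121, adjusted p = 2.11e-13). Within PANC1 and within SUIT2 the lowest 3 CDH1 values were those of the KMT2C siRNA libraries, 4.6 to 9.95 and 83.8 to 183 CPM. COLO357 did not share the pattern. Its KMT2C siRNA libraries lay at 166 to 193 CPM, its control library at 168 CPM, and its lowest value was with KMT2D siRNA1 (148 CPM). The PANC1 library labelled KMT2C siRNA2 had KMT2C above its control (57.9 against 49.6 CPM). The CDH1 pattern was seen after the values were read and was not tested. EPCAM, an epithelial adhesion molecule, was at 9.15 to 19.6 CPM in PANC1 and 435 to 871 CPM in SUIT2 (-5.46). CDH1 and many other list members named here and in the paragraphs that follow lie outside the stated rule for naming and were chosen after their values were seen.

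The transcription and splicing factors of the list included the largest differences. GRHL2, a transcription factor that keeps epithelial enhancers open, had 4 counts in the 6 PANC1 libraries and lay between 51.7 and 154 CPM in SUIT2 (-11.52, SE 0.245, adjusted p = 9.73e-15). COLO357 held at most 0.176 CPM of GRHL2, so that of the 3 lines SUIT2 alone expressed it above 1 CPM. The ETS factors EHF (0.0807 to 0.512 against 151 to 453 CPM) and ELF3 (0.323 to 2.83 against 19.1 to 95.8 CPM) were higher in SUIT2. ESRP1, which sets epithelial splicing, was at most 0.247 CPM in PANC1 and 55.2 to 132 CPM in SUIT2 (-9.62). Its paralog ESRP2 was 2-fold lower in PANC1 (adjusted p = 1.68e-05), and its libraries overlapped. OVOL1 had 1 count in PANC1, and OVOL2 was at most 0.178 CPM there against 1.01 to 1.97 CPM in SUIT2.

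The surface proteases and carriers of epithelia followed. ST14 (matriptase) was at 0.352 to 0.598 CPM in PANC1 and 177 to 312 CPM in SUIT2 (-8.99, SE 0.167, adjusted p = 5.44e-15), and its partner protease PRSS8 (prostasin) was lower in PANC1 too (-8.04). MAL2, a membrane protein of apical transport, was at most 0.224 CPM against 145 to 292 CPM (-10.23). The junction genes TJP3 (-5.89), MARVELD3 (-4.61) and CLDN3 (-2.73) were at least 4-fold lower in PANC1, and CLDN1 (-1.37), CLDN4 (-1.03) and CLDN7 (-1.13) less than 4-fold. GRHL3 went the other way, at 15.2 to 30.5 CPM in PANC1 and 0.523 to 5.2 CPM in SUIT2 (3.92, SE 0.332, adjusted p = 1.67e-07), as did the protease inhibitor SPINT2 (1.12). Occludin (OCLN) was called slightly higher in PANC1 (0.27, adjusted p = 0.0409), a call lost without the replicate block (0.30, adjusted p = 0.171). AP1M2 was not called (-0.33, SE 0.248, adjusted p = 0.255).

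Many epithelial promoters hold the E-box CAGGTG, which reads CACCTG on the other strand and is the word bound by the SNAI and ZEB families of repressors. Both words were searched in RefSeq promoter windows of the GRCh38.p14 build, from 250 bases before to 50 bases after a gene's start, and 20.6% of 35116 windows held at least 1. Taking all windows of a gene together, 24.1% of 27305 genes held it. Windows were found for 14 of the 27 epithelial genes higher in SUIT2, and 8 of the 14 held the word. CDH1, ESRP1, GRHL2, ST14, MAL2 and OVOL2 were among those without a window, so their promoters were not searched. CRB3 and RAB25 were the genes at least 4-fold higher in SUIT2 with at least 2 copies in a single window, and the 250 bases before their starts are shown for that reason, 5′ to 3′ on the plus strand, with the words in capitals. A match is a description of letters, and no binding was measured.
CRB3 (chr19:6464021-6464270): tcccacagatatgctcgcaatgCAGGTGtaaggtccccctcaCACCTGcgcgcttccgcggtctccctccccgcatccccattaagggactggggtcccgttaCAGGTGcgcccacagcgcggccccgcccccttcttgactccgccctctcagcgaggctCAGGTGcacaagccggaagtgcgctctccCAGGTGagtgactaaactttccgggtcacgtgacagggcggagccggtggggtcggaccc
RAB25 (chr1:156060910-156061159): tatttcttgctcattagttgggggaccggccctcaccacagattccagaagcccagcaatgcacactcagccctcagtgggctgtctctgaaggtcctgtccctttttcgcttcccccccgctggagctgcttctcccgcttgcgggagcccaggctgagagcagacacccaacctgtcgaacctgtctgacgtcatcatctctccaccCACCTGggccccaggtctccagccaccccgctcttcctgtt

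CRB3, an apical polarity protein, carries the word 5 times in the 250 bases shown. It was at 0 CPM or little above in PANC1 (highest 0.163) and at 3.27 to 8.41 CPM in SUIT2 (median 5.53; -7.37, SE 0.463, adjusted p = 1.42e-09). RAB25, a GTPase of epithelial membrane recycling, holds 1 copy in the bases shown and a second after its start. It was at most 0.0823 CPM in PANC1 and 23 to 53.3 CPM in SUIT2 (median 43.6; -10.08, SE 0.257, adjusted p = 4.08e-14). COLO357 was likewise at most 0.126 CPM for RAB25.

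The mesenchymal list leaned to PANC1 without being uniform. Of 28 genes 26 were tested. Of these 18 were called higher in PANC1 and 6 higher in SUIT2, 12 and 3 of them at least 4-fold, with a median of 1.12. This made 92.3% called and 57.7% at least 4-fold, against 68.2% and 17% over all genes tested. Vimentin (VIM), the intermediate filament of mesenchymal cells, was at 1271 to 2450 CPM in PANC1 (median 2234) and 204 to 786 CPM in SUIT2 (median 329; 2.39, SE 0.188, adjusted p = 3.54e-08). N-cadherin (CDH2) was at 32 to 40.2 CPM against 0.358 to 0.916 CPM (5.92). MMP2, a gelatinase, was at 21.2 to 60.7 CPM in PANC1 and had 1 count in SUIT2, a ratio of 3842 with a counting interval of 689 to 151768.

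Repressors of E-cadherin were divided between the lines. SNAI1 was higher in PANC1, at 2.66 to 5.52 against 0.179 to 0.344 CPM (3.89), and SNAI2 was higher in SUIT2, at 2.9 to 12.3 against at most 0.544 CPM (-5.39, SE 0.383, adjusted p = 8.39e-09). ZEB1 was expressed in both, at 72.5 to 104 CPM in PANC1 and 38 to 75.3 CPM in SUIT2 (0.70, SE 0.112, adjusted p = 4.88e-05), with overlapping libraries, and ZEB2 was not called (0.39, SE 0.377). TWIST2 had no count in SUIT2 and was at least 38.2-fold higher in PANC1, taking 3 counts over the 6 SUIT2 libraries as the floor. Secreted matrix genes of the same list were higher in SUIT2: FSTL1 (-6.87), tenascin C (TNC, -4.41), LOX (-1.85), TGFBI (-1.46) and MMP14 (-1.03). Fibronectin (FN1) was low in both lines and not called (0.25, SE 0.242).

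**Figure D3:**
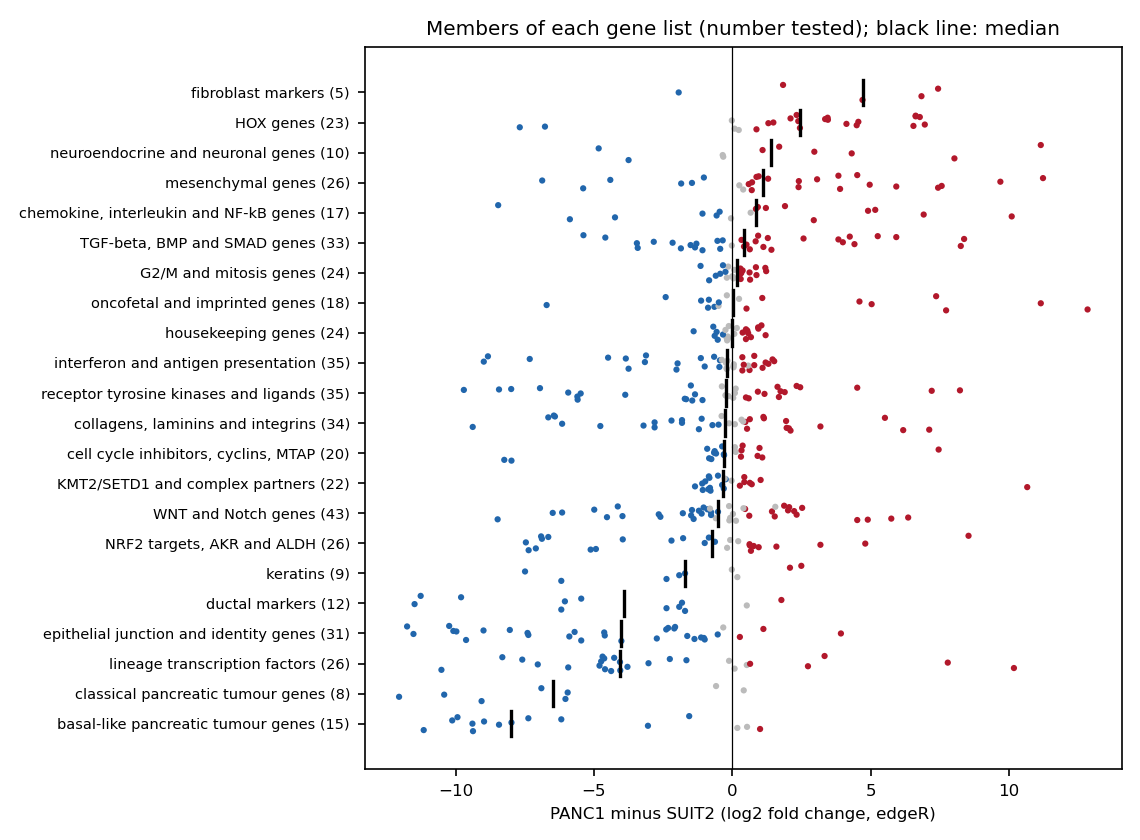
Log2 fold change of PANC1 over SUIT2 (edgeR, horizontal axis) for every tested member of each list with at least 5 tested genes, each point a gene, red and blue where called and grey where not, with the list's median as a black line. The medians run from 4.70 for fibroblast markers to -7.98 for basal-like tumour genes, against -0.01 over all genes tested. Members low in both lines were not tested, and some, such as THY1 and UCA1, passed the filter only through a single line. The medians therefore partly reflect the filter.

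The duct is the tissue this cancer resembles, and its markers were read as a check of the labels. Of 16 ductal markers 15 were matched; 7 of them were at 1 CPM or more in every PANC1 library and 10 in every SUIT2 library. Among the 12 tested, 10 were called higher in SUIT2 and 1 in PANC1 (91.7% called, against 68.2% over all genes tested). The simple keratins KRT8, KRT18 and KRT19, of which KRT8 and KRT18 are not particular to ducts, were expressed in both lines. KRT19 was at 205 to 477 CPM in PANC1 and 488 to 1687 CPM in SUIT2 (-1.71, SE 0.204, adjusted p = 5.06e-06), and KRT8 at 312 to 507 against 1267 to 3129 CPM (-2.38). KRT7 was nearly confined to SUIT2 among these lines, at 1.87 to 2.94 against 93.9 to 316 CPM (-6.18), although COLO357 held 543 to 815 CPM. CFTR, the chloride channel of duct cells, had no count in PANC1 and was at 6.6 to 29.4 CPM in SUIT2, at least 868-fold higher. The bicarbonate transporter SLC4A4 (-9.80) and the stem cell marker PROM1 (CD133; 1 count in PANC1, 19.8 to 39.8 CPM in SUIT2) were also higher in SUIT2. SOX9, the duct transcription factor, was expressed in both and was not called, since its control libraries differed the other way (0.52, SE 0.186).

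Acinar and islet genes were at or near 0 in both lines. Of 17 acinar markers matched, BHLHA15 alone was tested (at most 0.222 CPM in PANC1, 1.44 to 7.26 CPM in SUIT2), and none of 6 islet hormone genes passed the filter on low counts. Markers of other cell types were few. Of 14 fibroblast markers 5 were tested, with a summed level of 85.6 to 230 CPM in PANC1 and 3.09 to 8.52 CPM in SUIT2. COL1A1 (49.4 to 173 against 1.21 to 5.28 CPM), FBLN1 (27.9 to 53.9 against at most 0.381 CPM) and THY1 (3.21 to 12.3 against at most 0.0676 CPM) were 3 of the 4 called higher in PANC1, and ACTA2 was higher in SUIT2 (-1.94), while the fibroblast-defining DCN and LUM had no count in PANC1. Of 14 leukocyte markers 2 were tested, ITGAM higher in PANC1 (3.52) and LYZ higher in SUIT2 (-9.06), and the summed level of the list was 2.06 to 3.1 CPM in PANC1 and 3.65 to 10.9 CPM in SUIT2. The pan-leukocyte gene PTPRC had 4 counts in PANC1 and 2 in SUIT2. Of 10 endothelial markers 2 were tested, ERG higher in PANC1 (6.16) and ESAM higher in SUIT2 (-4.45), with a summed level of 1.02 to 2.31 CPM in PANC1 and 6.15 to 17.5 CPM in SUIT2, and VWF and CDH5 reached at most 0.196 CPM in any library of either line. The part of other cell types in the results was not tested.

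Transcription factors of the foregut and pancreas were mostly higher in SUIT2. Of 35 listed, 26 were tested. Of these 18 were called higher in SUIT2 and 5 in PANC1, 17 and 4 of them at least 4-fold, with a median of -4.06. The shares of 88.5% called and 80.8% at least 4-fold stood beside 68.2% and 17% over all genes tested. HNF4A, a master regulator of endodermal epithelia, was at most 0.096 CPM in PANC1 and 33.4 to 126 CPM in SUIT2 (-10.51, SE 0.297, adjusted p = 1.37e-13). GATA6, which marks the classical state of pancreatic tumours, was at most 0.272 CPM in PANC1 and 7.57 to 18.2 CPM in SUIT2 (-5.93). PDX1, required for the pancreas to form, was at most 0.453 CPM against 2.49 to 7.57 CPM (-4.38). KLF5 was at 1.49 to 3.34 CPM in PANC1 and 190 to 544 CPM in SUIT2 (-7.59, SE 0.175, adjusted p = 2.09e-14), and ONECUT2 at 0.969 to 2.3 against 167 to 246 CPM (-7.03). NR5A2 (-4.63), CDX2 (-4.27) and FOXA1 (-3.79) were higher in SUIT2 as well.

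A smaller set was higher in PANC1. GATA5 was at 23.6 to 29.1 CPM in PANC1 and had 2 counts in SUIT2, a ratio of 1552 with a counting interval of 429 to 12821. FOXA2, a pioneer factor of endoderm, was at 19.7 to 39.9 against 2.52 to 6.28 CPM (2.73, SE 0.166, adjusted p = 8.59e-10), opposite to its paralog FOXA1. SOX2 (3.33) and NKX6-2 (2.45 to 8.92 CPM, 2 counts in SUIT2) were also higher in PANC1. GATA4 was at 10.6 to 14.7 and 9.16 to 13.5 CPM, and was not called (0.08, SE 0.136, adjusted p = 0.632).

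Among the tested genes of the classical and the basal-like subtype of pancreatic tumours, most were higher in SUIT2. Of 26 classical genes 8 were tested and 6 were higher in SUIT2 (75% called, against 68.2% over all genes tested). Of 25 basal-like genes 15 were tested, 12 higher in SUIT2 and 1 in PANC1 (86.7% called). Both medians of the tested genes lay on the SUIT2 side, at -6.47 and -7.98. Members low in both lines were not tested. Several tested members passed the filter only through SUIT2, such as LYZ (1 count in PANC1, 797 in SUIT2) and UCA1 (4 and 7995). The medians therefore partly reflect the filter. On the classical side CEACAM6, a surface antigen, was at most 0.352 CPM in PANC1 and 467 to 868 CPM in SUIT2 (-12.04, SE 0.311, adjusted p = 1.51e-13), and TSPAN8 (-10.41) and LGALS4 (-6.03) were higher in SUIT2. AGR2 was at 80.7 to 216 CPM in PANC1 and 61 to 266 CPM in SUIT2, and was not called (0.41, SE 0.186, adjusted p = 0.0629). On the basal-like side the long non-coding RNA UCA1 (-11.15), TNS4 (-9.93), CST6 (-9.39) and FAM83A (-7.98) were higher in SUIT2, and S100A2 was 2-fold higher in PANC1 (1.00). Mucin genes were low in both lines: 4 of 14 were tested, all 4 called higher in PANC1, MUC1 at 1.38 to 3.6 against 0.392 to 1.49 CPM (1.77), and no mucin reached 1 CPM in every SUIT2 library. The call of MUC6 (1.05, adjusted p = 0.0117) was lost with DESeq2 (adjusted p = 0.0562) and without the KMT2C siRNA2 and siRNA3 pairs (adjusted p = 0.0767).

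Growth factor ligands and receptors were higher in SUIT2 in sum, at 3928 to 6881 CPM against 1978 to 2716 CPM in PANC1, and differed in both directions by gene. Of 44 receptor tyrosine kinase genes and ligands 35 were tested. Of these 13 were called higher in PANC1 and 15 in SUIT2, 5 and 9 at least 4-fold, with a median of -0.23. In all 80% were called and 40% at least 4-fold, against 68.2% and 17% over all genes tested. Ligands of the EGF receptor were a SUIT2 group: EREG was at 3.23 to 9.94 CPM in PANC1 and 873 to 2413 CPM in SUIT2 (-7.99, SE 0.23, adjusted p = 3.91e-13), and TGFA at 0.206 to 0.617 against 178 to 422 CPM (-9.70, SE 0.196, adjusted p = 7.69e-15). AREG had no count in PANC1 (at least 91.4-fold higher in SUIT2), BTC was higher in SUIT2 (-6.95), and HBEGF was not called (0.12, SE 0.166). The receptors EGFR (-1.45), ERBB2 (-1.08), ERBB3 (-5.59), MET (-1.67) and the insulin receptor INSR (17.3 to 42.9 against at most 0.888 CPM; -5.60) were higher in SUIT2. In PANC1 the ERBB3 ligand NRG1 (4.51), IGF1R (123 to 171 against 39 to 58.4 CPM; 1.68), RET (3.47 to 11 CPM, 2 counts in SUIT2), ROR2 (4.29 to 5.06 CPM, 3 counts in SUIT2) and GAS6 (2.45) were higher.

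Matrix and adhesion genes split along the same families. Of 41 collagens, laminins and integrins 34 were tested. Of these 13 were called higher in PANC1 and 16 in SUIT2, 6 and 10 at least 4-fold. This made 85.3% called and 47.1% at least 4-fold, against 68.2% and 17% over all genes tested. The chains of collagen V were higher in PANC1, COL5A2 at 62.8 to 152 against 0.254 to 1.11 CPM (7.11, SE 0.193, adjusted p = 7.54e-14) and COL5A1 at 19.7 to 31.7 against at most 0.764 CPM (6.17), as was the basement membrane collagen COL18A1 (3.18). Genes of the hemidesmosome, the rivet that holds epithelia to the basement membrane, and of its laminin were higher in SUIT2: ITGB4 at 1.87 to 8.27 against 159 to 752 CPM (-6.65, SE 0.131, adjusted p = 7.28e-15), COL17A1 at most 1.03 against 191 to 859 CPM (-9.38), ITGA6 (-2.20), LAMA3 (-4.77) and LAMB3 (-6.15). The integrin genes ITGB6 (-6.41) and ITGB8 (-6.45) were higher in SUIT2, and ITGB3 (5.51) and ITGA5 (1.94) were higher in PANC1.

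In the WNT and Notch list 43 of 46 genes were tested. Of these 14 were called higher in PANC1 and 20 in SUIT2, 9 of each at least 4-fold, with a median of -0.52. The list's shares were 79.1% called and 41.9% at least 4-fold, beside 68.2% and 17% over all genes tested. The ligands WNT5B (13.4 to 64.6 against 0.672 to 1.87 CPM; 4.89), WNT9A (5.74) and WNT5A (4.51) were higher in PANC1 and WNT7A in SUIT2 (6.8 to 39.2 against at most 0.206 CPM; -8.48). Frizzled receptors were divided, FZD7 higher in PANC1 (2.32) and FZD3 higher in SUIT2 (-3.97). RNF43, which removes frizzled receptors from the surface, was at most 0.742 CPM in PANC1 and 22 to 47.8 CPM in SUIT2 (-6.15), and LGR5 (-6.49) and LEF1 (-4.99) were higher in SUIT2. Of the Notch ligands, JAG2 (2.52) and DLL4 (2.05) were at least 4-fold higher in PANC1, and DLL1 was higher in SUIT2 (-1.04).

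Interferon response and antigen presentation genes held a SUIT2 group of large size beside small differences. Of 37 genes 35 were tested. Of these 11 were called higher in PANC1, none at least 4-fold, and 15 higher in SUIT2, 9 at least 4-fold, with a median of -0.21. The shares of 74.3% called and 25.7% at least 4-fold were not far from the 68.2% and 17% over all genes tested. BST2 (tetherin) was at most 0.123 CPM in PANC1 and 32.4 to 41.1 CPM in SUIT2 (-8.83, SE 0.255, adjusted p = 1.37e-13). IFI44 (-8.98), the RNA sensor OAS1 (0.161 to 0.311 against 24.8 to 60.2 CPM; -7.32), OASL (-4.49) and the DNA-sensing adaptor STING1 (-3.12) were also higher in SUIT2. In PANC1 the sensor CGAS (0.79), IRF7 (1.30), MX2 (68.8 to 88.3 against 24.4 to 33.6 CPM; 1.45) and the peptide transporter TAP1 (1.09) were higher. HLA class I genes were unequal, HLA-C higher in SUIT2 (-2.02) and HLA-B higher in PANC1 (0.62), while B2M was not called (-0.21, SE 0.102, adjusted p = 0.0838). HLA genes are polymorphic and near-identical, and their counts are uncertain.

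Cytokines differed in both directions. Of 34 chemokine, interleukin and NF-kB genes 17 were tested. Of these 9 were higher in PANC1 and 6 in SUIT2, 5 and 3 at least 4-fold. In all 88.2% were called and 47.1% at least 4-fold, against 68.2% and 17% over all genes tested. The monocyte attractant CCL2 was at 20 to 61.2 CPM in PANC1 and had 3 counts in SUIT2, a ratio of 1392 with a counting interval of 476 to 6750. CSF1 (84.6 to 206 against 1.78 to 5.75 CPM; 4.90), IL11 (6.91) and the adhesion molecule ICAM1 (5.16) were higher in PANC1. LCN2 (lipocalin 2; at most 0.096 against 6.15 to 28.1 CPM; -8.46), CXCL2 (-5.87) and CXCL16 (-4.24) were higher in SUIT2.

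Redox and aldehyde genes differed in both directions. Of 30 NRF2 targets, aldo-keto reductases and aldehyde dehydrogenases 26 were tested. Of these 9 were higher in PANC1 and 14 in SUIT2, 3 and 10 at least 4-fold, with a median of -0.74. This made 88.5% called and 50% at least 4-fold, against 68.2% and 17% over all genes tested. The aldo-keto reductases AKR1B10 (at most 0.192 against 4.13 to 36.3 CPM; -7.36) and AKR1C3 (-7.10), with AKR1C1 and AKR1C2, near-identical genes whose counts are uncertain, were higher in SUIT2. So were GPX2, a glutathione peroxidase of gut epithelium (0.0404 to 0.489 against 23.5 to 64.9 CPM; -7.46), ALDH2 (-3.96) and ALDH1A3 (-2.20). Of the NRF2 targets, HMOX1, which degrades heme (4.80), and the glutathione synthesis genes GCLM (1.59) and GCLC (0.95) were higher in PANC1. NQO1 was not called (-0.19, SE 0.127, adjusted p = 0.201).

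Genes of fetal tissue were split by number, with most of the large differences higher in PANC1. Of 25 oncofetal and imprinted genes 18 were tested. Of these 8 were higher in PANC1 and 7 in SUIT2, 6 of the former and 2 of the latter at least 4-fold, with a median of 0.02. The list's shares were 83.3% called and 44.4% at least 4-fold, beside 68.2% and 17% over all genes tested. IGF2BP1, a fetal RNA-binding protein, was at 69.4 to 130 CPM in PANC1 (median 107) and had 1 count in SUIT2, a ratio of 12250 with a counting interval of 2198 to 483892. LIN28B, which blocks let-7 maturation, was at 15.6 to 128 CPM against at most 0.523 CPM (7.72, SE 0.275, adjusted p = 2.91e-12). The imprinted RNAs MEG3 (38 to 110 CPM, 3 counts in SUIT2), H19 (25.3 to 77.5 against 0.85 to 3.52 CPM; 5.03) and MEST (113 to 176 against 3.41 to 8.79 CPM; 4.59) were higher in PANC1. IGF2, the imprinted neighbour of H19, went the other way, at 0.844 to 2.46 CPM in PANC1 and 50.5 to 547 CPM in SUIT2 (-6.71, SE 0.263, adjusted p = 4.44e-11). IGF2BP3 was expressed in both and higher in SUIT2 (-0.88). Of 28 cancer-testis genes PRAME alone was tested, at 115 to 152 against 12.3 to 37.6 CPM (2.48).

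Neural genes were present in PANC1 at low to moderate level. Of 28 neuroendocrine and neuronal genes 10 were tested, 6 higher in PANC1 and 2 in SUIT2 (80% called, against 68.2% over all genes tested). L1CAM, a neural adhesion molecule, was at 103 to 250 CPM in PANC1 and at most 0.196 CPM in SUIT2 (11.14, SE 0.265, adjusted p = 2.88e-14). Synaptophysin (SYP, 5.91 to 9.67 against at most 0.672 CPM; 4.31) and chromogranin B (CHGB, 2.1 to 5.86 CPM, 1 count in SUIT2) were higher in PANC1, whereas chromogranin A (CHGA, -3.75) and the somatostatin receptor SSTR5 (-4.83) were higher in SUIT2.

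HOX genes, which record position along the body axis and lie in 4 clusters, differed cluster by cluster. Of 39 genes 23 were tested. Of these 18 were called higher in PANC1 and 2 in SUIT2, 15 and 2 at least 4-fold, with a median of 2.44. The shares of 87% called and 73.9% at least 4-fold stood beside 68.2% and 17% over all genes tested. HOX genes low in both lines were not tested. Several tested members passed the filter only through PANC1, such as HOXC13 (at most 0.382 CPM in SUIT2), and HOXA10 only through SUIT2. The shares and the median therefore partly reflect the filter. All 7 tested HOXC genes were at least 4-fold higher in PANC1, from HOXC8 (2.10) to HOXC10 (20.3 to 53.9 against 0.0635 to 0.523 CPM; 6.77, SE 0.246, adjusted p = 2.18e-12). In the HOXB cluster HOXB2 (6.54), HOXB3 (4.49), HOXB4 (6.95) and HOXB5 (4.12) were neighbours all at least 4-fold higher in PANC1. HOXB8 was at 10.9 to 18.4 against 0.19 to 0.994 CPM (4.55) and HOXB9 was higher in PANC1 too (2.38). Between them and HOXB5, HOXB6 (1.30) and HOXB7 (1.48) differed less, and HOXB13 was not called (-0.02, SE 0.197). The HOXA cluster held the only HOX genes called higher in SUIT2, HOXA10 (5 counts in PANC1, 4.84 to 11.8 CPM in SUIT2; -7.68) and HOXA13 (-6.77), while HOXA5 was higher in PANC1 (2.44).

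**Figure D4:**
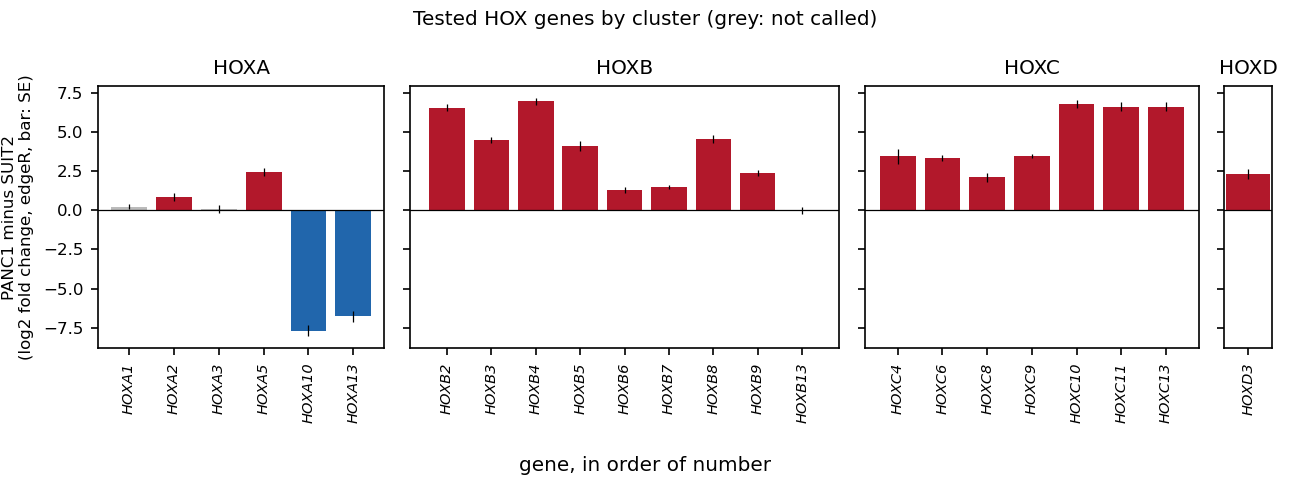
Log2 fold change of PANC1 over SUIT2 (edgeR, vertical axis, bars with SE) for the 23 tested HOX genes by cluster, red and blue where called higher in PANC1 and in SUIT2. All 7 HOXC bars lie above 2, and the only bars below 0 that were called are HOXA10 (-7.68) and HOXA13 (-6.77).

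Differences also ran along chromosomes. With 12642 tested protein-coding genes put in order by the GENCODE v29 annotation, a search made after values were seen looked for at least 4 neighbours in a row that were all called at least 4-fold in the same direction. The longest run lay on chromosome 19: 20 neighbouring genes from SAMD4B to AKT2 were higher in PANC1, with log2 differences of 3.12 to 13.08 and a median of 4.02. It holds PAF1, the scaffold of the PAF1 complex of RNA polymerase II (1125 to 2333 against 77.4 to 129 CPM; 4.30, SE 0.134, adjusted p = 2.97e-13), the elongation factor SUPT5H (3.74), the proteasome subunit PSMC4 (4.25), the nucleolar methyltransferase FBL (3.50), the kinases DYRK1B (3.76), MAP3K10 (4.58) and AKT2 (4.32), and the inhibitory Notch ligand DLL3. DLL3 had no count in SUIT2 and was at 37.3 to 60.4 CPM in PANC1, at least 1884-fold higher. RPS16 in the same run was at 1026 to 2801 against 126 to 181 CPM (3.60), a ribosomal protein gene whose pseudogene copies make its counts uncertain. Past AKT2 the differences dropped at once, with C19orf47 at 1.10 and PLD3 at 0.48.

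Before SAMD4B the picture was mixed. MRPS12, FBXO17, FBXO27, ACP7 and PAK4 formed a separate run of 5 higher in PANC1 (2.35 to 7.26), EIF3K (3.29), ACTN4 (1.75) and PSMD8 (1.62) were higher in PANC1, and LGALS4 (-6.03) and GMFG (-4.36) between them were higher in SUIT2. COLO357 averaged 153 CPM for PAF1 and 79.9 CPM for AKT2, against 97.3 and 52.5 CPM in SUIT2 and 1970 and 1065 CPM in PANC1.

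**Figure D5:**
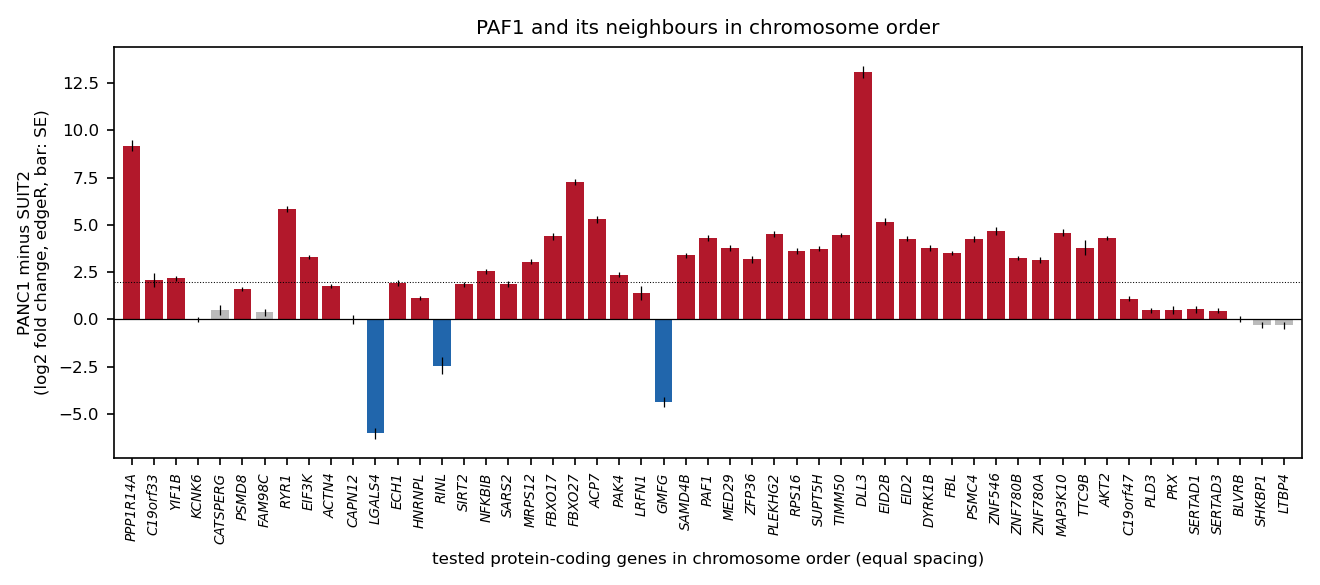
Log2 fold change of PANC1 over SUIT2 (edgeR, vertical axis, bars with SE) for PAF1 and 26 tested protein-coding neighbours on each side in chromosome order at equal spacing, grey where not called, with a dotted line at 4-fold. The 20 bars from SAMD4B to AKT2 all stand at 3.12 or above, and those after AKT2 lie at 1.10 or below.

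There were 9 such runs higher in PANC1 and 12 higher in SUIT2. PANC1 runs included the HOXC and HOXB genes above, 5 calcium channel subunit and immune receptor genes from CACNG7 to OSCAR, and 2 runs of 5 zinc finger genes and their neighbours (ZNF418 to ZNF329 and ZNF850 to ZNF568). The longest in SUIT2 held 6 genes from FUT10 to ERLIN2, ZNF703 among them. Runs silent in 1 line, under 0.1 CPM in every library for at least 4 genes with at least 2 of them at 2 CPM or more in every library of the other line, numbered 6 in PANC1 and 5 in SUIT2. In PANC1 they included HNF4A with R3HDML, CFTR with CTTNBP2, and CDKN2A. In SUIT2 they included MEG3 with MIR493HG, GATA5, and the zinc finger genes ZNF682, ZNF90 and ZNF486.

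The genes with the largest called differences and a mean of at least 10 CPM in the higher line were low in the other, at no more than 1.18 CPM in any library of those named here. In PANC1 the 12 were DLL3, IGF2BP1, ZFP30, ZNF365, ADNP2, FOXF2, SFRP1, ARHGEF6, GABBR2, BCL2A1, ZNF486 and CACNA1H, each with at most 2 counts in the 6 SUIT2 libraries. ADNP2, a homeobox zinc finger gene, was at 94.7 to 121 CPM in PANC1 and had 2 counts in SUIT2, a ratio of 6252 with a counting interval of 1731 to 51633. SFRP1, a secreted WNT inhibitor, was at 38.3 to 103 CPM and had 1 count in SUIT2. BCL2A1, a survival gene of the BCL2 family, had none and was at least 779-fold higher in PANC1. ZFP30, a zinc finger gene, was at 35 to 46.7 CPM in PANC1 and had no count in SUIT2, at least 1511-fold higher. FOXF2, a forkhead factor of mesenchyme, had no count in SUIT2 either (10.9 to 32.1 CPM in PANC1, at least 935-fold).

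In SUIT2 they included CEACAM6, IL20RA, SERPINB5, DAPK1, VCAN, SLC22A3, CLDN2, HSD17B2, SLC1A1, OLFM4 and RPE65. VCAN, the matrix proteoglycan versican, was at most 1.18 CPM in PANC1 and 1322 to 2915 CPM in SUIT2 (-11.73, SE 0.664, adjusted p = 1.5e-06). DAPK1, a death-associated kinase, was at most 0.444 CPM against 434 to 1389 CPM (-11.75). CLDN2, a pore-forming claudin of leaky epithelia, was at most 0.288 against 62.4 to 648 CPM (-11.69), and SERPINB5 (maspin) had 3 counts in PANC1 and lay at 49.1 to 215 CPM in SUIT2. OLFM4, a marker of intestinal stem cells, had no count in PANC1 and varied from 0.458 to 35 CPM among the SUIT2 libraries.

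Among abundant genes at least 4-fold different, AKAP12, a scaffold of protein kinase A, was at 3104 to 5115 CPM in PANC1 and 154 to 1284 CPM in SUIT2 (3.35, SE 0.32, adjusted p = 4.92e-06). The lysosomal PSAP (1444 to 2134 against 193 to 340 CPM; 2.66) and the ferritin light chain FTL (1209 to 2111 against 191 to 313 CPM; 2.64) were higher in PANC1. FTL has many pseudogene copies and its counts are uncertain. In SUIT2 the membrane protein DCBLD2 was at 798 to 3398 against 44.7 to 108 CPM (-4.46) and SHISA2 at 753 to 2044 against 7.06 to 19.1 CPM (-6.31). Over all genes tested, 59 had no count in SUIT2 and at least 1 CPM in every PANC1 library, and 44 the reverse.

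Genes that every dividing cell uses differed little. Of 24 G2/M and mitosis genes, all tested, 12 were called higher in PANC1 and 6 in SUIT2, none at least 4-fold, with a median of 0.16. The share called was 75% and the median size 0.33. Over all genes tested these were 68.2% and 0.66, and 17% were at least 4-fold different. CENPF (1233 to 1982 against 587 to 746 CPM; 1.22) and BIRC5 (1.19) were higher in PANC1 and FOXM1 (-1.15) and MKI67 (-0.84) higher in SUIT2. PLK1 was called higher in SUIT2 (-0.44), a call lost without the replicate block (-0.45, adjusted p = 0.0772). Of 24 housekeeping genes, all tested, 10 were called higher in PANC1 and 6 in SUIT2 (66.7% called), none at least 4-fold, with a median of -0.03. CHMP2A (1.05) was among those higher in PANC1, GAPDH (415 to 589 against 595 to 809 CPM; -0.53) was higher in SUIT2, and ACTB was not called (-0.19, SE 0.104, adjusted p = 0.121).

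Whether the siRNAs moved the line difference was tested gene by gene. For the difference between the lines with KMT2C siRNAs against that with KMT2D siRNAs, edgeR called 1 of 16098 genes (0.00621%), and 1260 had an unadjusted p under 0.05. For KMT2 siRNAs against the control siRNA it called 0 (0%), 951 had an unadjusted p under 0.05, and DESeq2 called 4. With 1 control library per line, the second test rests on the spread of the other libraries. The single gene was TIMM23B, a copy of the mitochondrial import gene TIMM23 whose counts can be split with that copy. TIMM23B was at 17.4 CPM in the PANC1 library of KMT2C siRNA1 and at 0.707 to 1.61 CPM in the other 5, and in SUIT2 it was at 13.5 and 17.4 CPM with KMT2D siRNA1 and siRNA2, 4.58 CPM with KMT2C siRNA1 and 0.0676 to 0.444 CPM in the rest. Its difference between the contrasts was 5.64 on the log2 scale (SE 0.494, adjusted p = 0.000296), and its line difference was not called (-0.60, SE 1.27, adjusted p = 0.696).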

How the data were processed

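The authors deposited whole-number counts, 1 table of 63677 Ensembl gene identifiers per library. Per the submitters' processing notes FastQC, TopHat2, HTSeq and edgeR were used with the hg19 build, whose versions, gene annotation and strand setting the sources used here do not state, so that reads of overlapping, antisense and near-identical genes may be shared. Per the labels, ribosomal RNA was depleted, stranded total RNA libraries were made, and paired ends of 100 nt were read after pooling in an order not given. The 5 entries that name no gene, 32.98% to 47.31% of the read pairs of the 12 libraries, were left out.

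From the 12 deposited count tables, genes were filtered (filterByExpr by line, minimum count 10, minimum total 15), scaled by TMM and tested with edgeR 4.0.16 (R 4.3.3) in a robust quasi-likelihood fit with siRNA as a block and line as the effect, with Benjamini-Hochberg adjustment (5 residual degrees of freedom). A log2 difference is PANC1 minus SUIT2, and its SE was derived from the F statistic. Some genes are not reported here. CPM use TMM factors over all 18 libraries. Same-siRNA libraries deviated together in the 2 lines (correlations of 0.273 to 0.543, and 12 of 12 libraries correlated best with their own siRNA), so the names pair the libraries. Libraries of the same line were distinct, with a chi-square of 23.9 to 125 per gene between them.

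Symbols came from the name table by identifier (52181 matched, 81.9%) and gene order from GENCODE v29, and no coordinates of the genes are given. Of 738 entries in 28 gene lists 732 were matched. KMT2B and CD24 are given no value, since their identifiers may not be the ones counted. Genes named by rule are KMT2C and KMT2D, the 12 largest per direction, the 6 most abundant at least 4-fold different, up to 4 list members per direction with the smallest p, members under 1 CPM in a line and at 5 CPM or more in the other, and called interactions. The members and lists were chosen with earlier results of these data known. List members low in a line could pass the filter through the other line alone. Shares and medians of lists that hold such members partly reflect the filter. The fit was tested on simulated data. Alternatives were RLE factors, no filter, DESeq2 1.42.0, limma-voom (limma 3.58.1), no replicate block, all 18 libraries, and each pair left out. A fit without the KMT2C siRNA2 and siRNA3 pairs was added after seeing the data. Counting intervals are exact binomial at 95% and, like the floor of 3 counts, cover counting error only.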

Additional observations from a re-analysis of the deposited data

Results flagged for a closer look

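For 9 of 210 sets of 6 values (pair differences of named genes and library totals), all 9 of them genes, a single pair lay far from the other 5, where chance flags about 1 in 20. FOXF2 had a log2 difference of 6.90 in the KMT2C siRNA2 pair against 7.91 to 8.44 in the others, and FZD7 had 1.31 there against 2.35 to 2.79. ITGB8 was at -7.40 in that pair against -6.48 to -5.96. ST14 was at -9.48 in the control pair against -8.75 to -8.38, and KRT23 at -3.15 in the KMT2C siRNA1 pair against -3.85 to -3.60. In the KMT2D siRNA2 pair CCNE1 was at 0.23 against 1.02 to 1.30 and RNF43 at -4.75 against -6.31 to -6.04. OASL was at -5.06 in the KMT2D siRNA1 pair against -4.05 to -3.61, and HOXC10 at 8.43 in the KMT2C siRNA3 pair against 5.80 to 6.72. In each case the direction was that of the other pairs.

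TIMM23B was the only gene whose line difference with KMT2C siRNAs differed from that with KMT2D siRNAs by edgeR's test, by 5.64 on the log2 scale (adjusted p = 0.000296). Its highest level, 17.4 CPM in each line, lay in the KMT2C siRNA1 library of PANC1 and in the KMT2D siRNA2 library of SUIT2.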

How the results depend on the processing

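For PANC1 against SUIT2 the count of called genes stayed within 1.5 times its value under every alternative run. It ran from 9395 without the replicate block to 13576 with no filter on low counts, and from 10388 to 11055 with a pair left out. Without the control pair the control direction was not required, here and for the 4-fold count, so that fit used a looser rule. For PANC1 against SUIT2, at least 4-fold, the count of 2729 ran from 2742 to 2819 with a pair left out and moved to 4838 without a filter, where 36791 genes were tested, and 2675 genes were called both ways. The count of genes whose line difference differed between KMT2C and KMT2D siRNAs was 1 and rose to 45 with DESeq2, 97 without a filter and 17 without the KMT2C siRNA2 and siRNA3 pairs, and was 0 with no replicate block. With a pair left out it ran from 1 to 100, and 100 came without the KMT2D siRNA1 pair. The cause was not tested. The count for KMT2 siRNAs against control was 0 and rose to 4 with DESeq2 and 29 without a filter, and was 0 with each KMT2 pair left out. The medians of all 27 lists with tested members kept their sign under RLE factors. Of 212 named genes 207 kept their direction and call under all 13 alternatives. MUC6 lost its call with DESeq2 (1.09, adjusted p = 0.0562) and without the KMT2C siRNA2 and siRNA3 pairs (0.95, adjusted p = 0.0767), where PLK1 (-0.31, adjusted p = 0.0533) and OCLN (0.18, adjusted p = 0.312) lost theirs. OCLN also lost its call with all 18 libraries (0.30) and with 4 of the 6 pairs left out (0.22 to 0.27). The line difference of TIMM23B, never called, turned sign with DESeq2 (0.31) and without the KMT2D siRNA1 (0.43) or siRNA2 pair (0.30), and ran from -1.41 to 0.43 with a pair left out. The control contrast could not be fitted without the control pair. Depth limits the near-absent genes, whose ratios rest on 0 to 3 counts in a line.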
